A study of Mus musculus with 59 samples.

Results

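Collagens are the triple-helical proteins that form the fibres, sheets and beaded filaments between cells, and 42 collagen genes could be followed in mouse liver on 59 arrays. They are the genes whose array symbol reads Col, a type number, the letter a and a chain number, taken only from probe sets that carry a single gene symbol. On the arrays, 82 probe sets had such a symbol, and each gene was followed on 1 of them, the one whose average over the 59 arrays was highest. These 42 stand among 18193 genes and 45037 probe sets measured, and 27 of the 42 have more than 1 probe set.

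The mice were male C57BL/6 animals, aged 6 weeks at the start and kept on their diet for 2 weeks before exposure. In the first experiment, of 39 arrays, mice on the purified diet AIN-76A or the chow LRD-5001 were kept for 5 weeks without added arsenic, with sodium arsenite in the drinking water at 10 or 100 ppb, or with 10 ppb in the food. In the second, of 20 arrays, mice on AIN-76A were injected into the peritoneum with saline, with dexamethasone at 1 mg/kg, with sodium arsenite at 1 mg/kg, or with both, and livers were taken 8 hours later. Dexamethasone is a synthetic glucocorticoid hormone. Each of the 12 groups holds 5 arrays, except the group on AIN-76A with 100 ppb in water, which holds 4. Arrays are named here by group and by the replicate letter of their label, and p-values rest on the spread between such samples.

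Values are log2 expression levels, so a difference of 1 is a doubling. The level of a probe set depends on how well its probes bind, so levels are compared between arrays and never between genes. Differences are given with the standard error (SE) of limma, which fits a linear model to all probe sets of 1 experiment and pools the spread over its groups, and a gene is said to pass where its p, adjusted by the Benjamini-Hochberg method over all 45037 probe sets, is under 0.05. Markers of hepatocytes, the main cell of liver, averaged between 12.5 and 13.0 on every array. After group means were subtracted, a principal component with 27.7% of the variance set 1 array of each group apart from the rest. Some of the results that rest on these 12 arrays are also given without them.

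In liver, most fibrillar collagen is made by stellate cells and the fibroblasts of the portal tracts, while hepatocytes and endothelial cells add others. Each chain is made as a procollagen in the endoplasmic reticulum, where prolyl and lysyl hydroxylases modify it and the chaperone Serpinh1 helps it fold. After secretion, the ends are trimmed, the fibrils are crosslinked by lysyl oxidases, and matrix metalloproteinases later break them down. Types I and III are the fibres that build up in liver scars, and type IV forms the sheet under epithelium and around vessels. Arrays of whole liver cannot tell fewer cells of a type from less RNA per cell.

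The 5 stretches below are the 250 bases before the RefSeq start of Col1a2 and Col3a1, whose levels varied together across arrays, of Col6a1, which varied with them, of Col27a1, which did not, and of Col15a1, which differed between the diets. They come from RefSeq on build GRCm38.p6, at chr6:4505368-4505617 on the plus strand for Col1a2, chr1:45311288-45311537 on the plus strand for Col3a1, chr10:76726045-76726294 on the minus strand for Col6a1, chr4:63215162-63215411 on the plus strand for Col27a1 and chr4:47207762-47208011 on the plus strand for Col15a1. All are written 5′ to 3′ along the gene, and capitals mark matches, on either strand, to the motifs described after them.
Col1a2: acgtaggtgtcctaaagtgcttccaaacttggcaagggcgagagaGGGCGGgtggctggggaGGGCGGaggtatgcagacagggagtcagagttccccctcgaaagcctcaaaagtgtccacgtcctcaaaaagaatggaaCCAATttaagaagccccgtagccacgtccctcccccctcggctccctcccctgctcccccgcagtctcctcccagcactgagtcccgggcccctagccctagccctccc
Col3a1: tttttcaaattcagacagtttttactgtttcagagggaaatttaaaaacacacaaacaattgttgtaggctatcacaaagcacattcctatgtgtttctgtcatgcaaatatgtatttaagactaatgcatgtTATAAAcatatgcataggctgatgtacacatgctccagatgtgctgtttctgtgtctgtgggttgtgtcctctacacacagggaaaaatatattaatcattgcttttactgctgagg
Col6a1: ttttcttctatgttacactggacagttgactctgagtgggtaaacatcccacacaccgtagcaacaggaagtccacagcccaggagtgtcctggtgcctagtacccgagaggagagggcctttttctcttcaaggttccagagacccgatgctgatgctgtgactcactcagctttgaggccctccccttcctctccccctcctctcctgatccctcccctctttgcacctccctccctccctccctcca
Col27a1: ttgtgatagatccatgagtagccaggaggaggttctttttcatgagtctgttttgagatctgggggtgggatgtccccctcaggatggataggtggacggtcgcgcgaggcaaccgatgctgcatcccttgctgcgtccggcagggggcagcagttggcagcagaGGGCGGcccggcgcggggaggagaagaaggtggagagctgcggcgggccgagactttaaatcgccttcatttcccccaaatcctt
Col15a1: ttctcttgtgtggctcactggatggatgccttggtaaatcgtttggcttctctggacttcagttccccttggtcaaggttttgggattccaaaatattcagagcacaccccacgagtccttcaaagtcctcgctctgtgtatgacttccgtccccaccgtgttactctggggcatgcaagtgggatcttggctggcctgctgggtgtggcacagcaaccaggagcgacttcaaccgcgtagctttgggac

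The motifs searched were the core of the CCAAT box, the core of the TATA box, read as TATAAA, and the core of the GC box, read as GGGCGG. Col1a2 has CCAAT beginning 109 bases before its start and GGGCGG beginning 205 and 188 bases before it. Col3a1 has a single TATAAA, beginning 117 bases before the start, and Col27a1 has a single GGGCGG at 85 bases. The windows of Col6a1 and Col15a1 hold none of these letters, and the core hexamer AGAACA bound by the glucocorticoid receptor is in none of the 5. No matches overlap. Counting both strands, the CCAAT core is in 33.8% of all 32851 RefSeq windows of this length, the TATA core in 12.4%, the GC core in 32.7% and the receptor hexamer in 16.1%. Among the 33 collagens with such a window, 13 have the CCAAT core, 5 the TATA core, 20 the GC core and 2 the receptor hexamer. These counts are by gene, with a match in any window of the gene, whereas the shares of all windows are by window. Col1a2 and Col3a1, which varied together most closely, share none of these motifs. A match is a description of the letters and not of a bound site.

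Of the 42 collagens, 27 had a mean over all arrays above 2.46, the median of all probe sets, and 15 lay below it. Each gene stands on its brightest probe set, which favours the upper side. The share of all genes chosen this way that lay above it was not counted. The split marks which probe sets are dim and does not rank the genes. RMA, the method behind the values, pulls those near the floor together, which can understate differences of dim genes. The fibrillar group has 11 genes, of which 8 are above that median, namely Col1a1, Col1a2, Col2a1, Col3a1, Col5a1, Col5a2, Col5a3 and Col27a1, while Col11a1, Col11a2 and Col24a1 are below it. Of the 6 chains of type IV, the basement membrane collagen, Col4a1 and Col4a2 are above and Col4a3, Col4a4, Col4a5 and Col4a6 below. Of type VI, which forms beaded filaments around cells, Col6a1, Col6a2, Col6a3 and Col6a4 are above and Col6a5 is below. Of 9 fibril-associated collagens, which coat fibrils, Col9a1, Col9a3, Col12a1, Col14a1, Col16a1, Col20a1 and Col22a1 are above and Col9a2 and Col19a1 below. The membrane-spanning Col13a1 and Col25a1, the multiplexins Col15a1 and Col18a1, the anchoring fibril gene Col7a1 and the network-forming Col8a1 are also above. The remaining genes below it are Col8a2, Col10a1, Col17a1, Col23a1 and Col26a1.

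**Figure D1:**
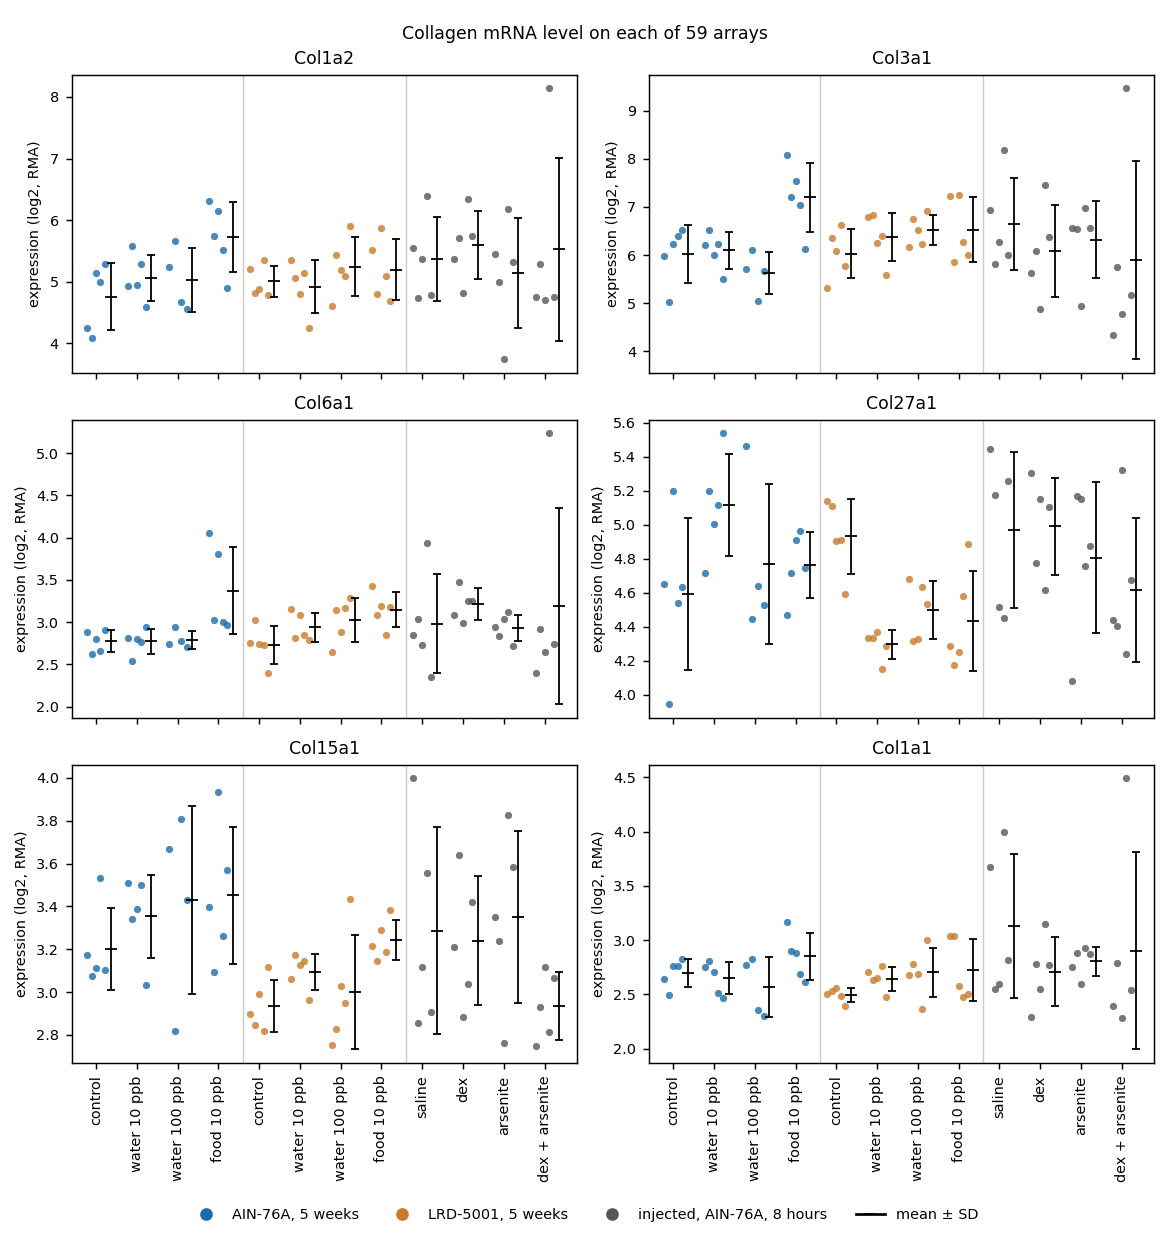
Level of 6 collagens on each of the 59 arrays (log2, vertical axis), by group (horizontal axis; dex is dexamethasone), with 1 dot per array and the mean ± SD beside each group. The highest dot of Col1a2, Col3a1, Col6a1 and Col1a1 is the same array, replicate E of dexamethasone with arsenite, at 8.14, 9.47, 5.23 and 4.49.

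Of the 19 comparisons, only that between the diets had a collagen that passed. Col15a1, a multiplexin of vessel and muscle basement membranes, was lower on LRD-5001 than on AIN-76A when the 4 exposures were averaged. Its lowest, median and highest levels were 2.82, 3.39 and 3.94 on the 19 arrays of AIN-76A and 2.75, 3.09 and 3.44 on the 20 arrays of LRD-5001. The ranges of both diets overlapped over most of their width. By exposure, the mean was 3.20 ± 0.19 on AIN-76A and 2.93 ± 0.12 on LRD-5001 in controls (SD, n = 5 each), and 3.36 ± 0.19 and 3.09 ± 0.09 with 10 ppb in water (SD, n = 5 each). It was 3.43 ± 0.44 (SD, n = 4) and 2.999 ± 0.27 (SD, n = 5) with 100 ppb in water, and 3.45 ± 0.32 and 3.24 ± 0.09 with 10 ppb in food (SD, n = 5 each). The mean was thus lower on LRD-5001 at each exposure level.

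The averaged difference of Col15a1 was -0.29 (SE 0.07, 95% interval -0.44 to -0.14, limma adjusted p = 0.0137). Without the 12 arrays that lay apart it was -0.25 and no longer passed (limma adjusted p = 0.0686). In controls alone the difference was -0.27 (SE 0.15) and did not pass (limma adjusted p = 0.761). Col15a1 was 1 of 42 collagens that passed, 0 higher and 1 lower, against 4.26% of all probe sets. At an unadjusted p under 0.05, 5 of 42 were lower and 0 higher, against 14.3% of all probe sets in either direction. The median difference of the 42 was -0.026, and that of all probe sets was -0.011.

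The 3 collagens that followed Col15a1 in the order of p in this comparison did not pass. Col10a1, the network-forming collagen of growth plate cartilage, had a mean of 2.26 on LRD-5001 and 2.44 on AIN-76A, a difference of -0.18 (SE 0.06, limma adjusted p = 0.0647). Col18a1, the multiplexin that hepatocytes make and whose end fragment is endostatin, had 9.81 and 10.00, a difference of -0.19 (SE 0.07, limma adjusted p = 0.0907). Its second probe set gave -0.17 (SE 0.08). Col27a1, a fibrillar collagen of cartilage and developing tissues, had 4.54 and 4.81, a difference of -0.27 (SE 0.09, limma adjusted p = 0.0956). The scar collagens had differences of -0.05 (SE 0.14) for Col1a2, 0.12 (SE 0.16) for Col3a1 and 0.03 (SE 0.08) for Col6a1, a chain of type VI.

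In the control mice alone, 0 of 42 collagens passed, against 0.568% of all probe sets. At an unadjusted p under 0.05 there was 1 collagen, Col12a1, against 7.21% of all probe sets. Col12a1, which coats type I fibrils, had a mean of 3.47 on LRD-5001 and 3.21 on AIN-76A, a difference of 0.26 (SE 0.10, limma adjusted p = 0.41). Col27a1 differed by 0.34 (SE 0.18), in the opposite direction to its averaged difference.

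Genes that fold, trim and break down collagen were read from lists of 78 measured genes, called here the genes of collagen handling. These 78 also hold 8 collagen receptors, 17 matrix partners and 17 genes of TGF-beta signalling. Between the diets, averaged, 1 of 78 passed as higher and 3 as lower on LRD-5001, which is 5.13% of them against 4.26% of all probe sets. At an unadjusted p under 0.05 there were 12 of 78, or 15.4%, against 14.3%, and the median difference of the 78 was -0.051. Mia3, which loads procollagen into transport vesicles, was higher by 0.28 (SE 0.07). Bmp1, the proteinase that cuts the end off procollagens, fell by 0.33 (difference -0.33, SE 0.07), and the membrane metalloproteinase Mmp14 fell by 0.60 (difference -0.60, SE 0.13). Fn1, the fibronectin on which collagen fibrils assemble, fell by 0.60 (difference -0.60, SE 0.07) and also in control mice alone (difference -0.75, SE 0.15, limma adjusted p = 0.00597). Among controls, Fn1 lay between 11.07 and 11.63 on the 5 arrays of AIN-76A and between 10.25 and 10.78 on the 5 of LRD-5001, with no overlap, as for 1.85% of all probe sets in either direction. Of 8 collagen receptors 0 passed, and 0 at an unadjusted p under 0.05. Of 17 genes of TGF-beta signalling, the main fibrogenic pathway, 0 passed, and 2 at an unadjusted p under 0.05.

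Of the cell type lists, 1 of 10 stellate cell markers (Rgs5, difference -0.55, SE 0.12) and 2 of 6 Kupffer cell markers (Clec4f, -0.40, SE 0.09, and Cd5l, -0.37, SE 0.10) were lower on LRD-5001 in the same comparison, with 1 of 5 hepatocyte markers (Hnf4a, -0.25, SE 0.07). Of 8 markers of activated fibroblasts and smooth muscle and 7 of endothelium 0 passed, and 0 at an unadjusted p under 0.05. In this comparison 4.26% of all probe sets passed, and 14.3% had an unadjusted p under 0.05. The mean level of the stellate list lay between 4.50 and 5.31 on the arrays of AIN-76A and between 4.56 and 5.13 on those of LRD-5001. That of the Kupffer list lay between 6.16 and 7.24 and between 5.89 and 7.14. No marker of these lists is at 0 on this scale. The part of these cells in the lower Col15a1 was not tested.

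**Figure D2:**
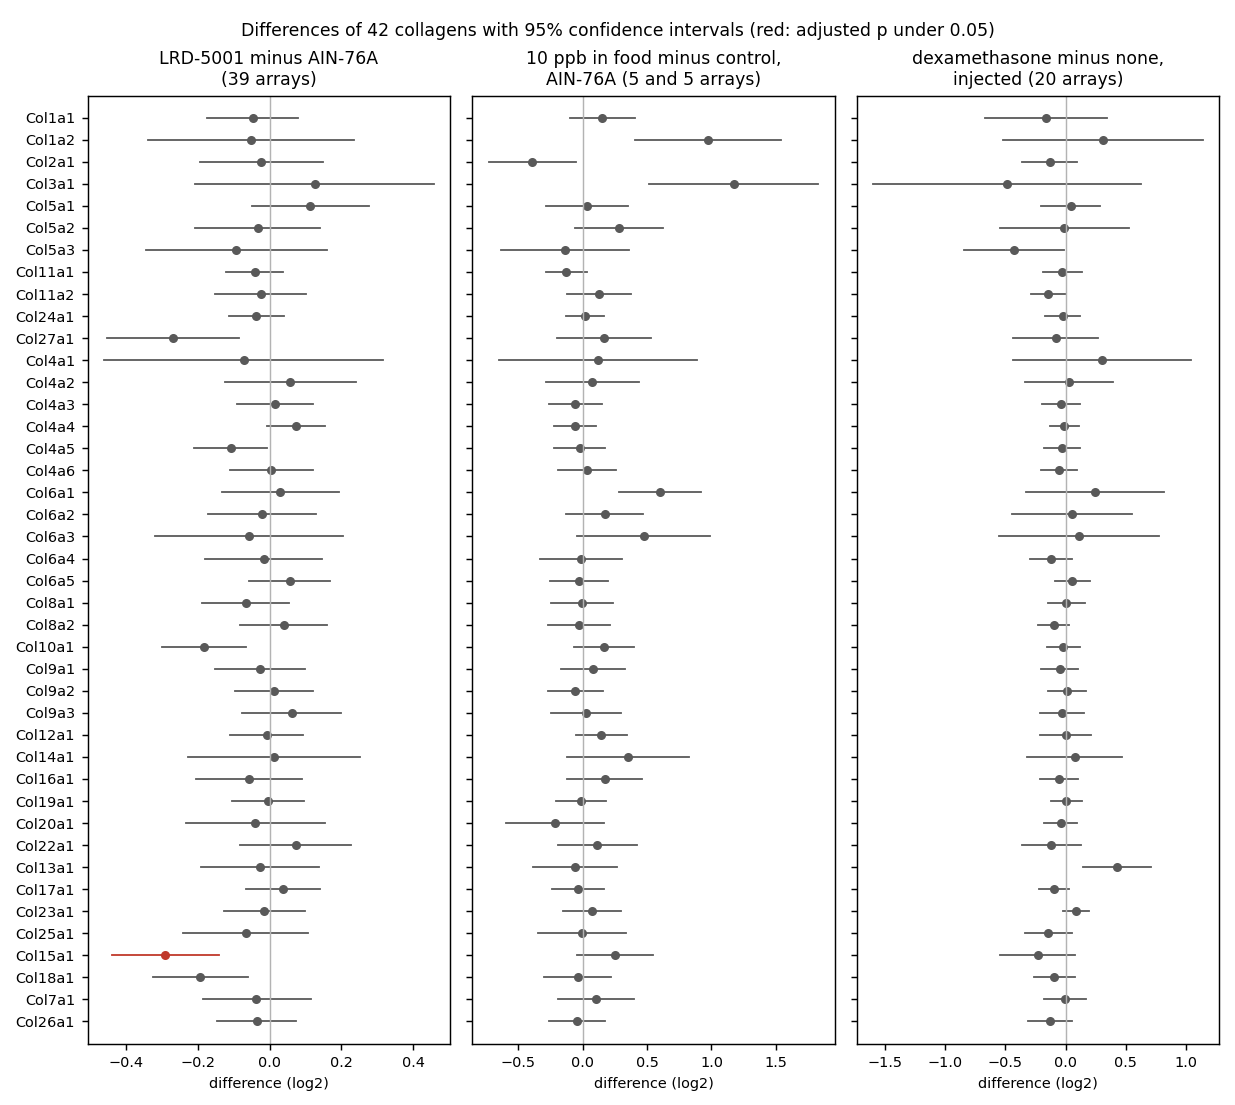
Difference (log2, horizontal axis) of each of the 42 collagens (vertical axis) with its 95% confidence interval, between diets, between arsenite in food and control on AIN-76A, and between dexamethasone and none among injected mice. Only Col15a1 between the diets, at -0.29, is red for an adjusted p under 0.05.

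Arsenite for 5 weeks gave no collagen that passed on either diet. The largest differences were those of the scar collagens on AIN-76A with 10 ppb in the food, and these came with wide spread between the arrays. Col3a1, the chain of type III, read 5.97, 5.02, 6.22, 6.40 and 6.52 on control replicates B, C, D, E and F. With arsenite in the food it read 8.08, 7.21, 7.54, 7.04 and 6.13 on replicates A, C, D, E and F. Of the exposed arrays, 4 lay above all controls, and F lay among them. The difference was 1.17 (SE 0.32, 95% interval 0.52 to 1.83, unadjusted p = 0.000905, limma adjusted p = 1). A second, dimmer probe set of Col3a1 gave 0.10 (SE 0.13).

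Col1a2, a chain of type I, read 4.26, 4.09, 5.15, 5.00 and 5.28 on the same control arrays and 6.32, 5.74, 6.15, 5.52 and 4.90 on the exposed arrays. Again replicate F was the exposed array that lay within the controls. The difference was 0.97 (SE 0.28, limma adjusted p = 1), and the other 2 probe sets of Col1a2 gave 0.42 (SE 0.15) and 0.14 (SE 0.08). Col6a1 read 2.88, 2.63, 2.80, 2.65 and 2.91 in controls and 4.05, 3.03, 3.81, 3.01 and 2.96 with food arsenite, so that all exposed arrays lay above all controls. Of all probe sets, 0.484% had no overlap between these groups in either direction. The difference of Col6a1 was 0.60 (SE 0.16, limma adjusted p = 1), and replicates A and D were far above the other exposed arrays.

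With food arsenite on AIN-76A, 0 of 42 collagens passed and 0% of all probe sets did. At an unadjusted p under 0.05, 3 collagens were higher and 1 lower, against 3.63% of all probe sets. The lower one was Col2a1, the cartilage fibril collagen, at -0.39 (SE 0.17). The median of the 42 was 0.035 and that of all probe sets -0.003. The other chain of type I, Col1a1, was at 0.15 (SE 0.12), Col5a2, a chain of the fibril core, at 0.28 (SE 0.17), and Col6a3, of type VI, at 0.47 (SE 0.25), and none of them passed.

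Of the 78 genes of collagen handling, 0 passed there, and 10 had an unadjusted p under 0.05, 7 higher and 3 lower. These are 12.8% of the 78, against 3.63% of all probe sets. Of the 10, 5 are matrix partners, 2 belong to TGF-beta signalling, 2 to collagen breakdown and uptake and 1 to folding and modification. Sparc, which binds collagen outside the cell, had a difference of 0.44 (SE 0.17), and the smooth muscle gene Tagln one of 0.67 (SE 0.22), both with a limma adjusted p of 1. The mean level of the stellate list lay between 5.01 and 5.31 with food arsenite against 4.50 to 5.18 in controls, and that of the list for activated fibroblasts and smooth muscle between 3.22 and 3.53 against 3.05 to 3.23. Of these 10 and 8 markers 0 passed, with 2 and 1 at an unadjusted p under 0.05, and their part in the collagen values was not tested. Exposed replicate D had Adipoq, the fat cell hormone adiponectin, at 7.24 against 1.94 to 2.14 on the other 4, while Lep, the other fat marker measured, read 2.39 against 1.80 to 2.13. Without D, the differences were 1.09 for Col3a1, 0.86 for Col1a2 and 0.49 for Col6a1, and replicate A, with the highest Col3a1, had Adipoq at 1.97. Without the 12 arrays that lay apart, of which D is one, they were 0.84, 0.70 and 0.45.

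Set against 10 ppb in water on the same diet, which uses the same food arrays again, the differences were 1.10 (SE 0.32) for Col3a1, 0.66 (SE 0.28) for Col1a2 and 0.60 (SE 0.16) for Col6a1, with 0 of 42 collagens and 0% of all probe sets passing. At an unadjusted p under 0.05 there were 3 of 42, all higher in food, against 5.82% of all probe sets. On LRD-5001 the same food dose gave 0.49 (SE 0.32) for Col3a1, 0.18 (SE 0.28) for Col1a2 and 0.42 (SE 0.16) for Col6a1 against control. The diets' responses to food arsenite differed by -0.68 (SE 0.46) for Col3a1, -0.79 (SE 0.40) for Col1a2 and -0.18 (SE 0.22) for Col6a1, and in this comparison 0 of 42 collagens and 0% of all probe sets passed, with 3 of 42 and 2.5% at an unadjusted p under 0.05. Without the 12 arrays that lay apart, the responses differed by -0.37 for Col1a2. The 95% interval of the Col3a1 difference ran from -1.61 to 0.25, so the response was not shown to be particular to a diet.

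Col27a1 had differences of opposite sign on the 2 diets with 10 ppb arsenite in water, and neither passed. On AIN-76A it read 4.65, 3.94, 5.20, 4.54 and 4.63 on control replicates B, C, D, E and F, and 4.72, 5.20, 5.01, 5.12 and 5.54 on exposed replicates A, C, D, E and F. The exposed arrays were the higher ones except that control D lay among them. On LRD-5001 it read 5.14, 5.11, 4.90, 4.91 and 4.59 on control replicates B, C, D, E and F, and 4.33, 4.33, 4.37, 4.15 and 4.29 on exposed replicates A, C, D, E and F. There, all exposed arrays lay below all controls, as happened in either direction for 0.622% of all probe sets.

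The difference of Col27a1 was 0.52 (SE 0.18, limma adjusted p = 0.993) on AIN-76A and -0.64 (SE 0.18, limma adjusted p = 1) on LRD-5001. Without the 12 arrays that lay apart, the difference on AIN-76A was 0.34. The responses of the diets differed by -1.16 (SE 0.25, 95% interval -1.67 to -0.64, unadjusted p = 6.04e-05), the smallest p of the 42 in this comparison, and this did not pass over all probe sets (limma adjusted p = 0.999). The second probe set of Col27a1 did not share the pattern, with -0.10 (SE 0.28) for the difference between responses and 0.06 (SE 0.20) on LRD-5001. The 3 exposed groups on LRD-5001 share 1 control group, against which Col27a1 differed by -0.43 (SE 0.18) with 100 ppb in water and by -0.50 (SE 0.18) with 10 ppb in food. Between the diets, its responses to these 2 exposures differed by -0.61 (SE 0.26) and -0.66 (SE 0.25).

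In the comparison of diet responses to 10 ppb in water, 0 of 42 collagens and 0% of all probe sets passed, and 6 of 42 had an unadjusted p under 0.05, 1 higher and 5 lower, against 4.14% of all probe sets. They include Col12a1 (-0.34, SE 0.14) and Col25a1, a membrane-spanning collagen of neurons (-0.56, SE 0.24). For 100 ppb the counts were 0 of 42 against 0% after adjustment, and 4 of 42, all lower, against 6.12% before it. On AIN-76A, 10 ppb in water gave 0 of 42 against 0%, and 2 of 42 against 4.84% before adjustment, the second being Col16a1 (0.31, SE 0.14). On LRD-5001 it gave 0 of 42 against 0%, and 2 of 42 against 2.34% before adjustment, the second being Col12a1 (-0.25, SE 0.10).

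With 100 ppb in water on AIN-76A, 0 of 42 collagens passed, against 0.00888% of all probe sets, and 5 of 42 had an unadjusted p under 0.05, against 8.87%. Col13a1, a membrane-spanning collagen of cell contacts, had the smallest p, with 2.87, 3.50, 3.79 and 2.58 on replicates A, B, C and D against 2.41 to 2.86 in the 5 controls. The arrays overlapped, and the difference was 0.51 (SE 0.17, limma adjusted p = 0.292). Without the 12 arrays that lay apart it was 0.69 and passed (limma adjusted p = 0.0372), the only 1 of 18 alternative fits in which it did. Without replicate C it was 0.31, and the highest limma adjusted p of the alternatives was 0.965. Replicates B and C, the high ones in Col13a1, also had the highest mean level of the 7 endothelial markers, at 4.29, 5.19, 5.32 and 4.35 on A, B, C and D against 4.24 to 4.89 in controls, and the lowest of the 3 pancreatic markers, at 4.61, 3.91, 4.08 and 4.51 against 4.29 to 4.64. The Kupffer list lay between 6.16 and 6.54 against 6.20 to 7.24, with 3 of 6 markers lower at an unadjusted p under 0.05. No marker of these lists passed, and their part in the Col13a1 values was not tested. Col5a3, a minor fibrillar chain, differed by -0.75 (SE 0.26), and Col7a1, which anchors epithelium to its matrix, by 0.43 (SE 0.16), and neither passed. On LRD-5001, 100 ppb gave 0 of 42 against 0%, and 2 of 42 against 2.34% before adjustment, and 10 ppb in food gave 0 of 42 against 0%, and 5 of 42 against 2.29%. These 5 were Col12a1 (-0.28, SE 0.10), Col27a1, Col6a1, Col9a1 (-0.30, SE 0.12) and Col15a1 (0.31, SE 0.15). Food against water at 10 ppb on LRD-5001 gave 0 of 42 against 0%, and 0 of 42 against 1.62% before adjustment. The 95% interval of a typical collagen in these comparisons of 5 arrays with 5 reached 0.28 to either side, and that of the most variable one, Col4a1, reached 0.77.

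Dexamethasone for 8 hours left no collagen past the threshold. Averaged over mice with and without arsenite, 0 of 42 collagens passed, against 4.3% of all probe sets, and 2 of 42 had an unadjusted p under 0.05, against 15.8%. Col13a1 was closest. Its lowest, median and highest levels were 2.22, 2.53 and 3.12 on the 10 arrays without dexamethasone and 2.63, 3.02 and 3.83 on the 10 with it, so that the ranges overlapped. The difference was 0.43 (SE 0.13, limma adjusted p = 0.0812). It passed in 4 of 29 alternative fits and did not pass in the rest. Among the 4 were 1 fit of all 59 arrays (limma adjusted p = 0.0229) and 2 fits with a single array left out. These gave a limma adjusted p of 0.0435 without replicate C of dexamethasone with arsenite and 0.0301 without saline replicate B. Without replicate A of dexamethasone with arsenite the difference was 0.34, and the highest limma adjusted p of the alternatives was 0.153. The second gene was Col5a3, at -0.43 (SE 0.20, limma adjusted p = 0.296). Of the scar collagens, Col3a1 was at -0.49, and at -1.19 without the 12 arrays that lay apart. It was negative in all 29 alternative fits and passed in 0, with a lowest limma adjusted p of 0.086. Col1a2 was at 0.31 and Col6a1 at 0.24, and both were negative without those arrays (-0.28 and -0.11). The 95% interval of a typical collagen reached 0.18 to either side, and the widest reached 1.11. Differences of the most variable collagens could thus have been missed.

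Dexamethasone alone against saline gave 0 of 42 collagens against 1.74% of all probe sets, and 1 of 42 against 11.2% before adjustment, Col8a2, a collagen of vessel and eye membranes, at -0.22 (SE 0.09). Both agents against saline gave 0 of 42 against 0.926%, and 3 of 42 against 9.78% before adjustment, namely Col13a1 (0.52, SE 0.19), Col5a3 (-0.77, SE 0.28) and Col23a1 (0.15, SE 0.07). Injected arsenite alone gave 0 of 42 against 0%, and 1 of 42 against 3.14% before adjustment, Col19a1 at 0.25 (SE 0.09). In each of these comparisons with saline, the widest 95% interval of a collagen reached 1.57 to either side. Arsenite averaged over both hormone states gave 0 of 42 against 0%, and 0 of 42 against 3.28% before adjustment. For the interaction of both agents, the counts were 0 of 42 against 0%, and 3 of 42 against 3.46% before adjustment.

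Of the 78 genes of collagen handling, 2 were higher and 3 lower with dexamethasone when averaged over arsenite, which is 6.41% of them against 4.3% of all probe sets. At an unadjusted p under 0.05 there were 13 of 78, or 16.7%, against 15.8%, and the median difference was -0.03, against -0.017 for all probe sets. Ccn2, a matrix growth factor downstream of TGF-beta, read 2.97 to 4.69 on the 5 saline arrays and 5.02 to 6.44 on the 5 dexamethasone arrays, with no overlap, as for 3.81% of all probe sets in either direction, and rose by 2.22 on average (SE 0.32, limma adjusted p = 0.000281). Tgfbr2, a receptor for TGF-beta, read 5.40 to 6.53 with saline and 7.07 to 8.00 with dexamethasone alone, and rose by 1.11 on average (SE 0.20, limma adjusted p = 0.00197). The folding enzymes P4hb and Ppib fell by 0.42 (difference -0.42, SE 0.09) and 0.52 (difference -0.52, SE 0.12), and Pcolce2, an enhancer of procollagen trimming, fell by 0.72 (difference -0.72, SE 0.20). With dexamethasone alone, 2 of 78 were higher and 2 lower, against 1.74% of all probe sets, and with both agents 1 was higher, against 0.926%. In each of the 7 comparisons of arsenite alone with its control, 0 of 78 passed, against 0% to 0.00888% of all probe sets. At an unadjusted p under 0.05 there were 1 to 10 of 78, or 1.28% to 12.8%, against 2.29% to 8.87%. The 12.8% belongs to food arsenite on AIN-76A, where 3.63% of all probe sets had such a p. 

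Of the cell type lists, 1 of 10 stellate cell markers passed when dexamethasone was averaged over arsenite, Ngfr (-0.48, SE 0.13), and the median of the list was -0.002. Of 7 endothelial markers 1 passed, Lyve1 (2.04, SE 0.45), with 2 higher and 1 lower at an unadjusted p under 0.05 and a median of 0.143. Of 6 Kupffer cell markers 0 passed, 3 were lower at an unadjusted p under 0.05 and the median was -0.415. When averaged over arsenite, 4.3% of all probe sets passed, and 15.8% had an unadjusted p under 0.05. With dexamethasone alone the median of the Kupffer list was -0.804, and its mean level lay between 5.32 and 5.96 against 5.55 to 8.43 with saline. Of 5 hepatocyte markers 1 was higher, Cps1 (0.54, SE 0.14), of 3 pancreatic markers 1 was lower, Cela1 (-1.01, SE 0.25), and of 8 markers of activated fibroblasts and smooth muscle 0 passed, with 2 higher at an unadjusted p under 0.05. The part of these cells in the values of Col13a1 and of the genes of collagen handling was not tested.

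A single injected liver stood apart in its collagens. Col3a1 read 4.33, 5.75, 4.78, 9.47 and 5.18 on replicates A, C, D, E and F of dexamethasone with arsenite. Col1a2 read 4.76, 5.28, 4.70, 8.14 and 4.75, and Col6a1 read 2.40, 2.92, 2.65, 5.23 and 2.74 on the same arrays. In all these genes E lay far above the other 4. Replicate E was the highest of all 59 arrays for 9 of the 42 collagens, which are Col1a1, Col1a2, Col3a1, Col4a2, Col5a2, Col6a1, Col6a2, Col6a3 and Col14a1, and it was the highest for 4.34% of all 18193 genes. It was over 1 above the mean of the other 4 in 10 collagens, a count that was not taken over all genes. The median distance from that mean was 0.197 for the 42 collagens and -0.002 for all genes. Among the matrix partners of collagen, E was highest of 59 for 8 of 17 genes, with 3 of 11 for collagen breakdown and uptake, 2 of 9 for trimming and crosslinking, 1 of 16 for folding and modification, 0 of 8 for receptors and 0 of 17 for TGF-beta signalling. For cell types it was highest for 1 of 10 stellate cell markers, 1 of 8 of activated fibroblasts and smooth muscle, 0 of 7 of endothelium, 0 of 6 of Kupffer cells and 3 of 5 of hepatocytes. Sparc read 8.66 on E and 6.06 to 6.67 on the other 4.

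For Col3a1, Col1a2 and Col6a1, the comparisons that include this group depended strongly on that array. Between both agents and saline, Col3a1 differed by -0.74 (SE 0.75) with E and by -1.63 without it, Col1a2 by 0.16 (SE 0.56) with it and -0.49 without it, and Col6a1 by 0.21 (SE 0.38) with it and -0.31 without it. None of these passed, with limma adjusted p from 0.171 to 0.724 without E. E is one of the 12 arrays that lay apart. It was also the lowest of all 59 arrays for 567 of 18193 genes. These include Hsd3b5, a steroid dehydrogenase of male liver, at 2.90 against 6.20 to 10.41 on the other 4 of its group. Hsd3b5 was picked after the array had been singled out, and all mice are labelled male. Whether this array carries the liver that its label names was not tested, and the values of E and of the comparisons with its group rest on that label. In the saline group, replicate E had the highest Col3a1, 8.19 against 5.82 to 6.93, together with a Kupffer list level of 8.43 against 5.55 to 6.56, whose part in the collagen value was not tested.

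**Figure D3:**
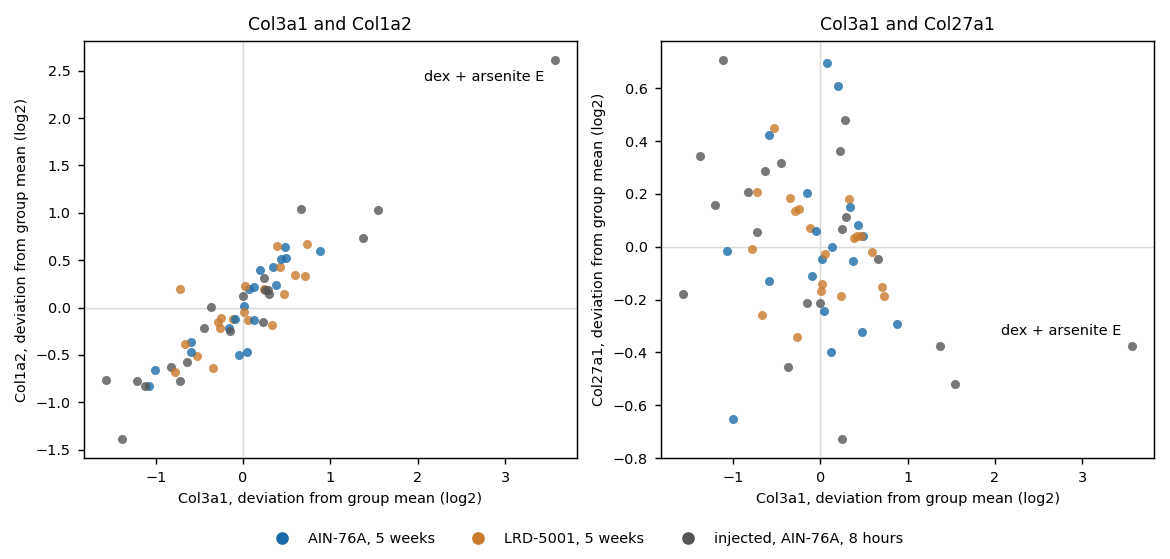
Deviation of each array from its group mean in Col3a1 (log2, horizontal axis) against that in Col1a2 (left) and Col27a1 (right), with 1 dot per array. Col1a2 follows Col3a1 over the whole range (r = 0.927), with replicate E of dexamethasone with arsenite at the far end, and Col27a1 does not (r = -0.313).

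Within groups, part of the fibrillar and type VI collagens varied together from array to array. For each of Col1a2, Col3a1, Col6a1 and Col27a1, the deviations from group means were correlated over 59 arrays with those of every other collagen, with p from 100000 permutations within groups and adjusted over 159 relations. Arrays share normalization and RNA quality, so these values describe the arrays and not a shared control. Col1a2 and Col3a1 had r = 0.927 and rho = 0.897 (permutation p = 1e-05 for both, the smallest these permutations can give, adjusted p = 0.000145 and 0.000227). Without the 2 arrays farthest from the median of Col1a2 the r was 0.881. It was 0.832 over the 39 arrays of the first experiment and 0.966 over the 20 injected ones, 0.933 without E.

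Col3a1 also varied with Col6a3 (r = 0.861, rho = 0.782), Col1a1 (r = 0.838, rho = 0.747), Col5a2 (r = 0.789, rho = 0.665), Col6a2 (r = 0.78, rho = 0.568), Col6a1 (r = 0.77, rho = 0.559) and Col14a1 (r = 0.706, rho = 0.635). Col5a2 is a chain of the type V core of type I fibrils, and Col14a1 coats them. Within the first experiment these r lay between 0.5 and 0.671. Counting pairs with an adjusted p under 0.05, Col3a1 had 9 of 41, Col1a2 10 of 41 and Col6a1 8 of 41, with positive r in every one of them. How many genes other than collagens varied with them as closely was not counted, so these counts are not shown to be particular to collagens. Col6a1 with Col6a2 had r = 0.726 (rho = 0.565), and without the 2 arrays farthest in Col6a1 0.502.

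Col27a1 stood outside this set, with 2 of 41 pairs, Col5a3 (r = 0.485, rho = 0.469, permutation p adjusted 0.00836) and Col4a1 (r = -0.502, rho = -0.512, permutation p adjusted 0.016). The second was -0.3 in the first experiment and -0.707 in the injected arrays. The type IV genes Col4a1 and Col4a2 lie head to head on opposite strands with RefSeq starts 21 bases apart. Their deviations had r = 0.731 and rho = 0.806 (permutation p = 1e-05 for both), and r = 0.748 without the 2 arrays farthest in Col4a1, a pair chosen after its value was seen.

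**Figure D4:**
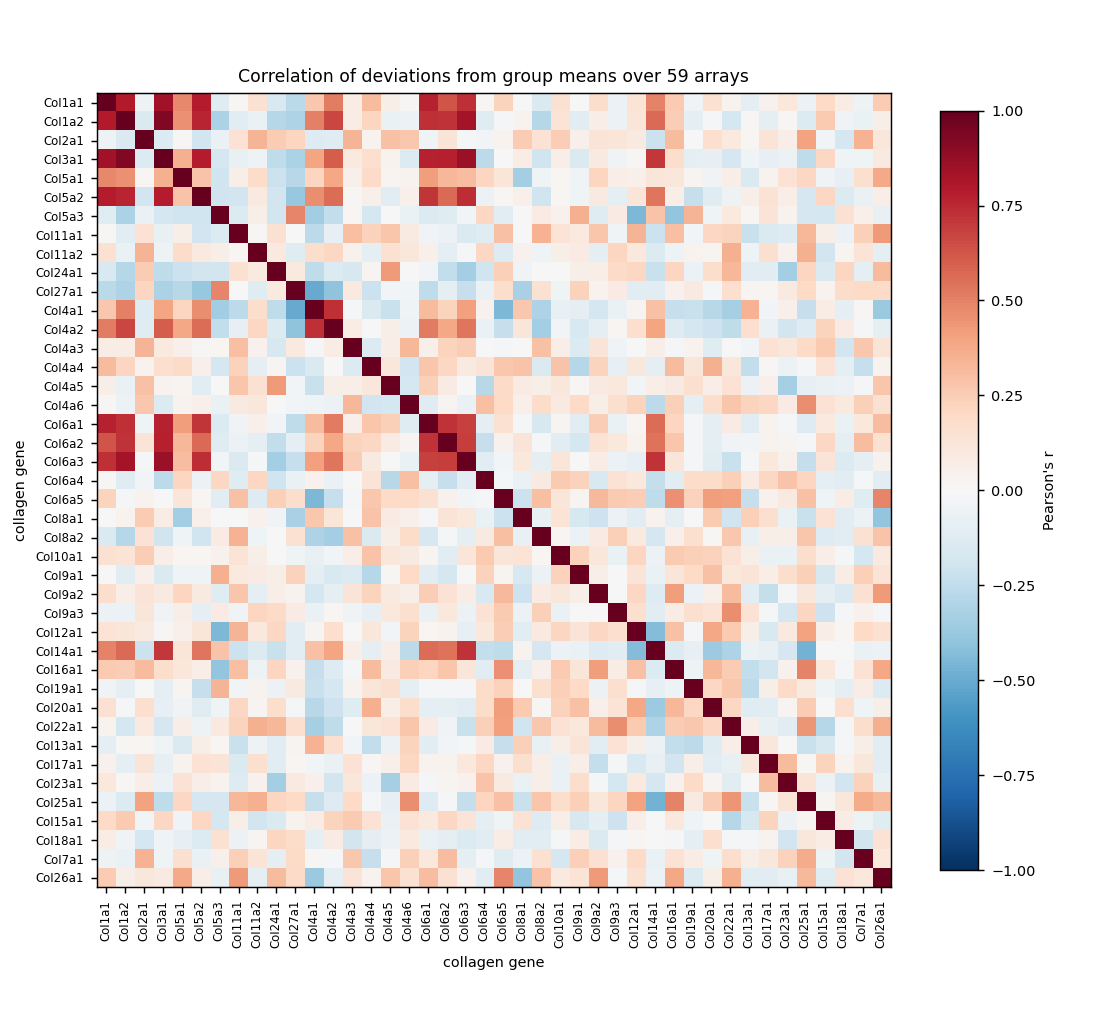
Pearson's r between the deviations from group means of each pair of the 42 collagens (both axes) over 59 arrays, on a colour scale from -1 (blue) to 1 (red). Col1a1, Col1a2, Col3a1, Col5a2, Col6a1, Col6a2, Col6a3 and Col14a1 form the dark red set, and Col4a1 with Col4a2 (r = 0.731) a pair.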

How the data were processed

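Liver RNA was hybridised to 1-colour Affymetrix mouse arrays, 1 per sample. The values are log2 expression per probe set, as deposited by the authors after RMA, per the submitters' processing notes, with the version not given in the sources used here. RMA pulls dim probe sets together, so differences of dim genes can be understated. The values were used without further normalization or filter, and their precision is limited by the number of arrays. Of 45101 probe sets, 64 controls were left out. Gene symbols are those of the platform annotation, and all 42 collagens were found in the RefSeq table of GRCm38.p6, 33 with a promoter entry.

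Samples were grouped by their titles. Tests used limma 3.58.1 (R 4.3.3), with 1 model for the 39 arrays exposed for 5 weeks and another for the 20 injected, in 19 comparisons, with Benjamini-Hochberg adjustment over 45037 probe sets and a threshold of 0.05. The pipeline was tested on simulated data. Correlations and figures used Python 3.11.15, numpy 2.4.6, scipy 1.17.1 and pandas 2.3.3. No 2 arrays were duplicates (the closest pair had r = 0.994 across probe sets).

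The members, the lists and the tests were chosen with earlier results of these data known. The text gives in full Col1a2, Col3a1, Col6a1, Col27a1 and each collagen that passed, the 3 smallest p where none did, and up to 4 genes per list; it names fewer where little was seen. Of 132 listed genes, 120 were measured. Alternatives were normalization between arrays, a filter on low values, all probe sets of a gene, the arrays in the fit, the arrays apart, a variance trend, the replicate letter as a block, and leaving out each array.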

Additional observations from a re-analysis of the deposited data

Results flagged for a closer look

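Among 120 sets of 4 or 5 arrays tested for 10 collagens, 7 had 1 array far from the rest, and chance gives about 1 in 20. Replicate E of dexamethasone with arsenite accounts for 4 of them, being the highest of its group at 9.47 in Col3a1, 8.14 in Col1a2, 5.23 in Col6a1 and 4.49 in Col1a1. The next highest arrays were at 5.75, 5.28, 2.92 and 2.79. Replicate D of arsenite alone was the lowest in Col3a1, at 4.94 against 6.54 for the next. Replicate E of the AIN-76A controls was the highest in Col15a1, at 3.54 against 3.17 for the next; without it the averaged diet difference of Col15a1 was -0.27 and still passed (limma adjusted p = 0.0247). Replicate F of 10 ppb in water on LRD-5001 was the lowest in Col13a1, at 2.47 against 2.82.

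The response of Col27a1 to 10 ppb arsenite in water ran up on AIN-76A and down on LRD-5001, with every exposed array above the control mean on the first diet and below it on the second. The difference of the responses was -1.16 (SE 0.25) and did not pass over all probe sets (limma adjusted p = 0.999).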

How the results depend on the processing

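In 16 of the 19 comparisons the count of collagens that passed was 0 under every alternative. Between the diets, averaged, it was 1, and 2 with all 59 arrays in 1 fit, with the arrays apart as a block, with the mean of all probe sets of a gene or with quantile normalization; it was 0 without the 12 arrays apart and 1 to 2 when single arrays were left out. The added gene was Col10a1, Col18a1 or Col27a1. For dexamethasone averaged it was 1, Col13a1, with all 59 arrays or the replicate block, and 0 to 1 when single arrays were left out. For 100 ppb in water on AIN-76A it was 1, also Col13a1, without the 12 arrays apart. Under the replicate block Col13a1 was at 0.57 (limma adjusted p = 0.0113), and no other count changed. The labels do not say that the letters pair the samples. Of 267 pairs of arrays with the same letter, 79 had a correlation of deviations over 0.1. The median was -0.004, and -0.005 for pairs with different letters. Of the 59 arrays, 16 were closest to an array of their own letter outside their group, a count not set against chance. These values cannot exclude a pairing. Signs of differences that did not pass turned without the 12 arrays apart for Col1a2 (-0.64 for both agents, -0.28 for dexamethasone averaged), Col6a1 (-0.46 and -0.11) and Col27a1 (0.069, dexamethasone averaged), and with all probe sets averaged for Col19a1 (-0.031, dexamethasone) and Col8a1 (-0.016, interaction). With single arrays left out, Col1a2 ranged from -0.49 to 0.42 for both agents, -0.018 to 0.44 for dexamethasone averaged, -0.49 to 0.12 for arsenite and -0.10 to 0.001 for diet; Col6a1 from -0.31 to 0.45 and from -0.012 to 0.36; and Col3a1 from -0.53 to 0.064 for arsenite. The cause of the turns with other arrays or probe sets was not tested.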

Other observations

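The array with the highest scar collagens, replicate E of dexamethasone with arsenite, also differed from the other 4 of its group in genes outside the matrix; these were listed by the size of that difference after the array had been singled out. The gene furthest above was Ube2c, an enzyme of mitosis, at 7.46 against 2.18 to 2.92, and the cyclins Ccnd1 (9.10 against 4.15 to 6.79) and Ccnb2 (5.62 against 2.08 to 2.41) were among the first 12. Col3a1 was the fourth. The gene furthest below was Moxd1, a monooxygenase-like gene, at 2.06 against 9.78 to 10.16. Hsd3b5, a steroid dehydrogenase of male liver, read 2.90 against 6.20 to 10.41, Mup10, a major urinary protein, 3.67 against 5.95 to 8.20, and Elovl3, a fatty acid elongase, 6.07 against 7.35 to 11.18. Of 5 hepatocyte markers, 3 were highest of all 59 arrays on E. These are values of 1 array with no test, and whether it carries the liver its label names was not tested.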
